A study of Xenopus tropicalis with 18 samples.

Results

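Thyroid hormone receptor (TR) binding was described at 5 genes of the insulin, PI3-kinase and autophagy pathway: insr, pik3r1, phlpp2, foxo3 and ulk1. The deposited table counts reads in 9867 regions, and 6 of these regions overlapped or lay within 10 kb of the 5 genes. All 6 passed the filter on low counts, which 9342 regions of the table passed in all. The genes ulk1 and pik3r1 had drawn attention by the size of their rise with hormone in TRβKO tadpoles. Which comparisons had drawn attention to insr, phlpp2 and foxo3 is not known here. Comparisons at the 5 genes are therefore given as descriptions, by their size and error. Among them an adjusted p is printed only for ulk1 and pik3r1 in TRαKO against wild type. Earlier results of these data were known when both were chosen, so these p-values are descriptions too. Where no region was called, the number at an unadjusted p below 0.05 is given as a count only.

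The samples were intestines of Xenopus tropicalis tadpoles at stage 54, a stage before metamorphosis at which the gut can respond to added hormone. Tadpoles were wild type (WT), TRαKO or TRβKO, with the gene for the receptor TRα or TRβ knocked out, and were left untreated or given 10 nM T3, the active thyroid hormone, for 18 h. There were 3 libraries a group and 18 in all, stated to be biological replicates, from chromatin precipitated with an antibody to TR. The labels call the TRα line TRαKO and the series text calls it TRαLKO. How the knockouts were made, how many tadpoles went into a library and which of the receptors the antibody recognises are not given in the sources used here. No library without antibody enrichment was used here. ChIP reads at thra and thrb do not show whether a receptor protein is lost, and they measure no expression, so neither the genotype labels nor the tissue label were checked by markers. In whole intestine, a larger share of cells with bound receptor and more binding per cell cannot be told apart.

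TRα and TRβ are nuclear receptors that stay on chromatin with or without hormone, recruit corepressors when empty and coactivators when T3 is bound, and drive the change from larval to adult gut in frogs. The insulin receptor signals through PI3-kinase to the kinase AKT. Active AKT keeps FOXO transcription factors out of the nucleus and, through mTOR, holds back the ULK1 kinase that starts autophagy, the process by which a cell digests its own parts. The roles given here for single genes are known mainly from mammals.

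Depth differed between the groups. Tags left after the duplicate filter ranged over 12.4 to 17.1 M per library in untreated WT and 2.29 to 2.53 M in WT with T3. They ranged over 7.49 to 9.28 M in untreated TRαKO, 6.03 to 8.02 M in TRαKO with T3, 5.22 to 5.80 M in untreated TRβKO and 2.76 to 3.28 M in TRβKO with T3. Duplicate tags averaged 2.5% in untreated WT and 21.8% in WT with T3. The fragment length given by the peak caller was 275, 255 and 283 bp in untreated WT and 295 to 298 bp in all other libraries. Untreated WT had 8466 to 17717 peaks per library, against 666 to 6565 in the other groups. Levels below are CPM, the reads per M of these tags, given for replicates 1, 2 and 3 in turn and then as mean ± SD (n = 3). A region was called changed when the adjusted p of edgeR's quasi-likelihood test was below 0.05 over all tested regions. Each log2 change carries a standard error, taken as its size divided by the square root of the F statistic of that test. Separation of libraries between groups is given as a description, as its share over all regions was not computed.

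**Figure D1:**
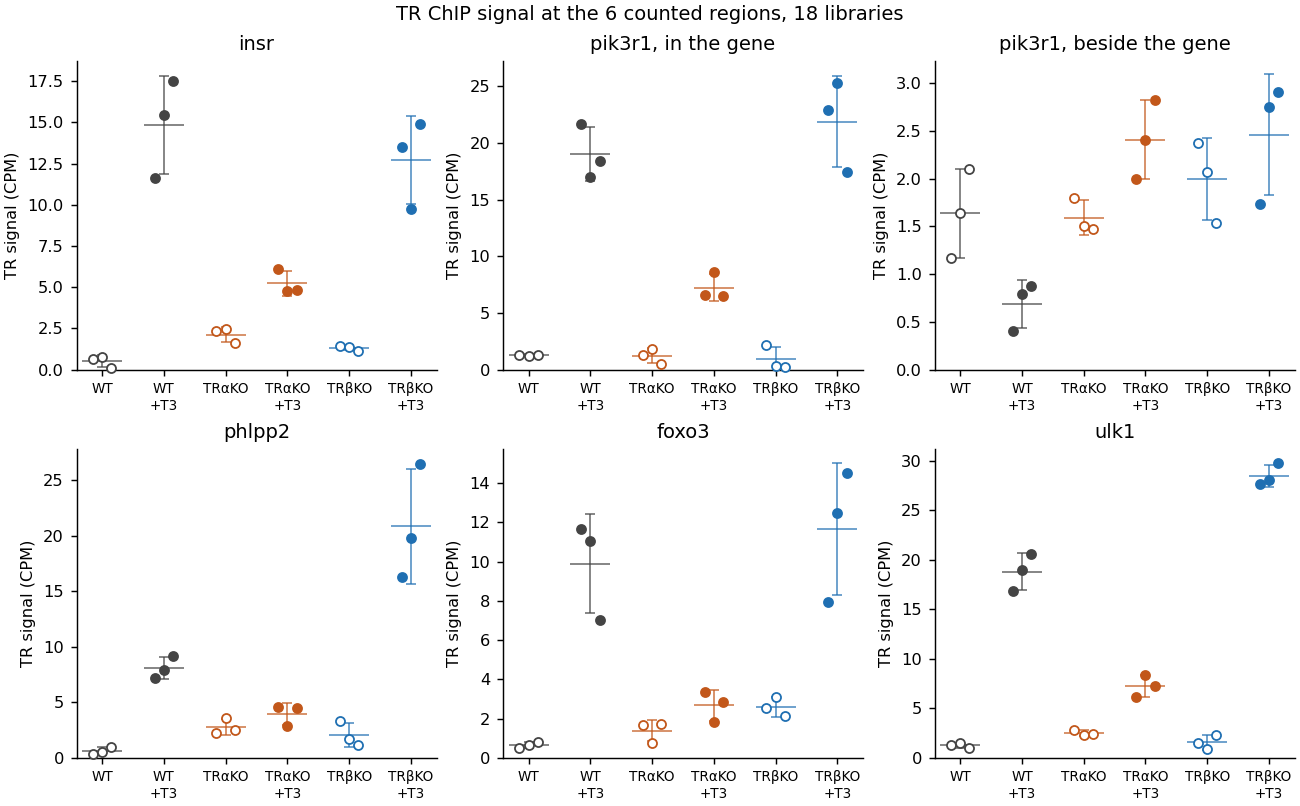
TR ChIP signal in CPM at the 6 regions, with the 6 groups on the horizontal axis, 1 point per library (open, untreated; filled, T3), and lines for mean ± SD of 3 libraries. Each panel has its own scale from 0. At ulk1 the 3 TRβKO libraries with T3 lie between 27.7 and 29.8 CPM, above all others, and the region beside pik3r1 shows no rise with T3 in WT.

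The gene insr encodes the insulin receptor, the tyrosine kinase at the cell surface that starts the pathway. Its region, chr1:111790117-111790585, lay within the gene and was 469 bp long. In untreated WT it held 0.658, 0.760 and 0.0809 CPM, and in WT with T3 it held 11.6, 15.4 and 17.5 CPM. The untreated values rest on 9, 13 and 1 reads, and every T3 library lay above every untreated one. In untreated TRαKO the values were 2.31, 2.48 and 1.60 CPM, against 6.11, 4.80 and 4.81 CPM with T3. In untreated TRβKO they were 1.46, 1.38 and 1.15 CPM, against 13.5, 9.76 and 14.9 CPM with T3. Both knockouts, too, had their T3 libraries above their untreated libraries. By group mean the order was WT with T3 (14.8 ± 2.97), TRβKO with T3 (12.7 ± 2.65), TRαKO with T3 (5.24 ± 0.753), untreated TRαKO (2.13 ± 0.466), untreated TRβKO (1.33 ± 0.162) and untreated WT (0.50 ± 0.366). The libraries of WT and TRβKO with T3 overlapped, and no other neighbours in that order did.

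The gene pik3r1 encodes p85α, the regulatory subunit that holds the catalytic subunit of class I PI3-kinase and brings it to activated receptors. It had a pair of counted regions. The region within the gene, chr1:186688244-186688777, was 534 bp long. In untreated WT it held 1.32, 1.17 and 1.29 CPM, and in WT with T3 it held 21.7, 17.0 and 18.4 CPM. In untreated TRαKO it held 1.29, 1.83 and 0.534 CPM, and with T3 it held 6.61, 8.61 and 6.47 CPM. Every T3 library again lay above the untreated libraries of its genotype. Untreated TRβKO held 2.19, 0.345 and 0.192 CPM, from 12, 2 and 1 reads, so that replicate 1 stood above the other two. TRβKO with T3 held 22.9, 25.3 and 17.4 CPM. In order of group mean came TRβKO with T3 (21.9 ± 4.04), WT with T3 (19.0 ± 2.41), TRαKO with T3 (7.23 ± 1.20), untreated WT (1.26 ± 0.0799), untreated TRαKO (1.22 ± 0.651) and untreated TRβKO (0.910 ± 1.11). The leading groups overlapped each other, as did the 3 untreated groups.

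The other pik3r1 region, chr1:186672629-186672992, was 364 bp long and lay 3186 bp outside the gene. It held 1.17, 1.64 and 2.10 CPM in untreated WT and 0.402, 0.791 and 0.875 CPM in WT with T3, the latter from 1, 2 and 2 reads. In TRαKO it held 1.80, 1.51 and 1.47 CPM without T3 and 2.0, 2.40 and 2.82 CPM with T3. In TRβKO it held 2.38, 2.07 and 1.53 CPM without T3 and 1.73, 2.75 and 2.90 CPM with T3. The T3 libraries lay below the untreated ones in WT, above them in TRαKO and among them in TRβKO. None of these differences was called.

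The gene phlpp2 encodes a phosphatase that removes an activating phosphate from AKT and so damps insulin signalling. Its region, chr4:59373592-59374099, was 508 bp long and lay 757 bp outside the gene, with no other gene within 10 kb. Untreated WT held 0.292, 0.526 and 0.971 CPM and WT with T3 held 7.23, 7.91 and 9.19 CPM. Untreated TRαKO held 2.19, 3.55 and 2.54 CPM and TRαKO with T3 held 4.61, 2.82 and 4.48 CPM. These TRαKO libraries overlapped, replicate 2 with T3 lying below replicate 2 without it. Untreated TRβKO held 3.29, 1.73 and 1.15 CPM and TRβKO with T3 held 16.3, 19.8 and 26.5 CPM. The order of the group means was TRβKO with T3 (20.9 ± 5.18), WT with T3 (8.11 ± 0.995), TRαKO with T3 (3.97 ± 0.998), untreated TRαKO (2.76 ± 0.711), untreated TRβKO (2.06 ± 1.11) and untreated WT (0.597 ± 0.345). Untreated TRαKO overlapped both TRαKO with T3 and untreated TRβKO, and no other neighbours in that order overlapped.

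The gene foxo3 encodes a FOXO transcription factor that AKT phosphorylates, and in mammals it activates autophagy and stress-resistance genes. Its region, chr5:78305588-78306109, was 522 bp long and lay within the gene. Untreated WT libraries held 0.512, 0.643 and 0.809 CPM, against 11.6, 11.1 and 7.0 CPM with T3. Untreated TRαKO libraries held 1.67, 0.754 and 1.74 CPM, against 3.37, 1.83 and 2.82 CPM with T3. The lowest TRαKO library with T3 was thus just above the highest untreated one. Untreated TRβKO libraries held 2.56, 3.10 and 2.11 CPM, against 7.97, 12.5 and 14.5 CPM with T3. Group means ran from TRβKO with T3 (11.7 ± 3.35) and WT with T3 (9.90 ± 2.53) through TRαKO with T3 (2.67 ± 0.777), untreated TRβKO (2.59 ± 0.50) and untreated TRαKO (1.39 ± 0.549) to untreated WT (0.655 ± 0.149). TRβKO and WT with T3 overlapped, as did TRαKO with T3 and untreated TRβKO, and untreated TRαKO and untreated WT.

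The gene ulk1 encodes the kinase at the head of the autophagy cascade, which AMPK activates and mTOR inhibits. Its region, chr1:156665778-156666363, was 586 bp long and lay within the gene. In WT the libraries held 1.32, 1.46 and 0.971 CPM without T3 and 16.9, 19.0 and 20.6 CPM with T3. In TRαKO they held 2.83, 2.26 and 2.40 CPM without T3 and 6.11, 8.32 and 7.30 CPM with T3. All 3 untreated TRαKO libraries lay above the untreated WT libraries, and all 3 T3 libraries lay below those of WT. In TRβKO they held 1.46, 0.863 and 2.3 CPM without T3 and 27.7, 28.1 and 29.8 CPM with T3. From the highest group mean down, the order was TRβKO with T3 (28.5 ± 1.09), WT with T3 (18.8 ± 1.86), TRαKO with T3 (7.25 ± 1.11), untreated TRαKO (2.5 ± 0.295), untreated TRβKO (1.54 ± 0.721) and untreated WT (1.25 ± 0.252). The 3 T3 groups did not overlap, whereas untreated TRβKO overlapped both of its neighbours.

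The change with T3 was then measured in each genotype. With T3 the signal rose at the regions of all 5 genes in WT and in TRβKO, and at 3 of them in TRαKO, where the rises were smaller in value at each gene. In WT, 5 of the 6 regions were called higher and none lower, against 10.2% of all tested regions higher and 1.08% lower. The authors' peaks at these regions, given below, were almost all in libraries with T3. If the counted regions were taken from such peaks, a rise with T3 was in part set in advance. The counts of rises in every genotype are therefore a description and no test. The log2 change was 4.77 ± 0.37 at insr, a 27.3-fold rise, and the insr change ranked 32 of 9342 regions. It was 3.90 ± 0.31 at pik3r1, 3.75 ± 0.40 at phlpp2, 3.90 ± 0.40 at foxo3 and 3.87 ± 0.27 at ulk1. The region beside pik3r1 had -1.23 ± 0.71 and was not called. The median over all tested regions was 0.02.

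In TRβKO, 5 of the 6 regions were called higher and none lower, against 9.49% of tested regions higher and 2.27% lower. The log2 change was 4.56 ± 0.37 at pik3r1 and 4.21 ± 0.29 at ulk1, which ranked 10 and 15 of 9342. These ranks are what drew attention to both genes. Without replicate 1 of untreated TRβKO, the library with 12 of the 15 untreated reads, the pik3r1 value was 6.24. At insr the change was 3.23 ± 0.38, at phlpp2 3.33 ± 0.34 and at foxo3 2.16 ± 0.37. The region beside pik3r1 had 0.30 ± 0.54. The median over all tested regions was -0.16.

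In TRαKO, 3 of the 6 regions were called higher and none lower, against 8.6% of tested regions higher and 0.0749% lower. The log2 change was 2.51 ± 0.34 at pik3r1, which ranked 75 of 9342, 1.53 ± 0.27 at ulk1 and 1.29 ± 0.33 at insr. The phlpp2 value of 0.51 ± 0.33 and the foxo3 value of 0.97 ± 0.41 were not called, nor was 0.58 ± 0.47 beside pik3r1. Over all tested regions the median change in this genotype was 0.46. Above that median, pik3r1 stood at 2.06, ulk1 at 1.07, insr at 0.83, foxo3 at 0.51 and phlpp2 at 0.05. With TMM scaling the median was 0.07, the insr change was 0.90 and it was no longer called.

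Depth fell with T3 in WT and TRβKO, as given above. With every library thinned to the depth of the shallowest, all 5 genes were still called higher in both genotypes. The thinned log2 changes ranged from 3.31 at foxo3 to 4.59 at pik3r1 in WT and from 2.06 at foxo3 to 4.91 at pik3r1 in TRβKO. In TRαKO, pik3r1 at 2.56 and ulk1 at 1.11 were called after thinning and insr at 0.94 was not.

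**Figure D2:**
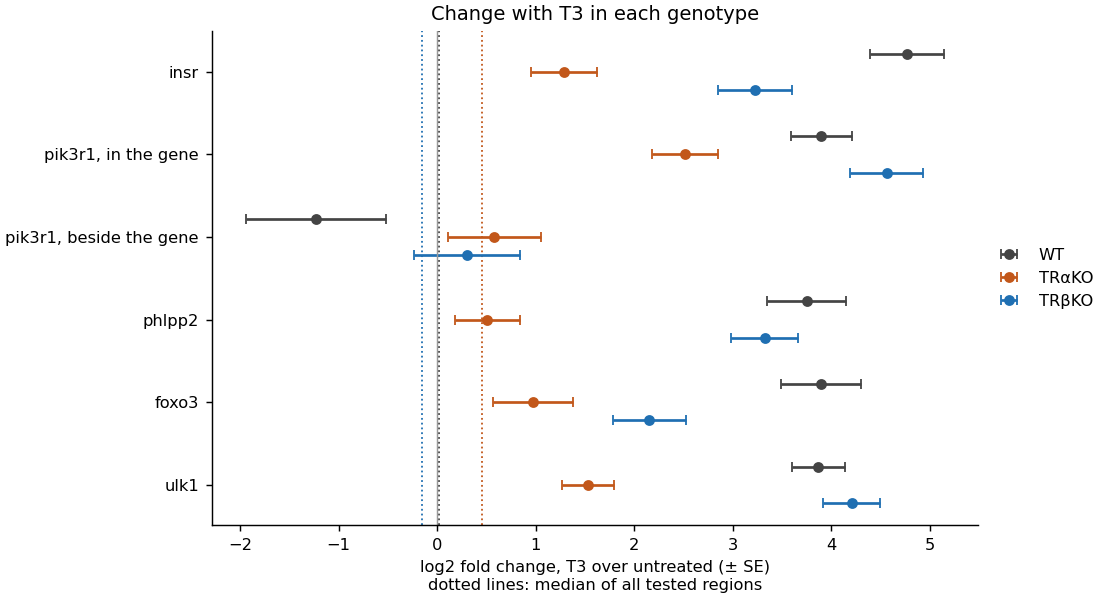
Log2 fold change with T3 (horizontal axis, point ± SE of the fit to 18 libraries) at the 6 regions in WT, TRαKO and TRβKO, with dotted lines at the median of all tested regions. The TRαKO points for the 5 genes lie between 0.51 and 2.51, each to the left of the WT and TRβKO points of its gene, which lie between 2.16 and 4.77.

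The question whether the T3 response differed with genotype was addressed by the difference of the T3 effects. In TRαKO the T3 effect was smaller than in WT at insr, phlpp2, foxo3 and ulk1. These 4 of the 6 regions were called lower, and none higher, against 5.18% of tested regions lower and 1.11% higher. The log2 difference was -3.48 ± 0.51 at insr (95% interval -4.51 to -2.46), -3.24 ± 0.52 at phlpp2, -2.92 ± 0.59 at foxo3 and -2.34 ± 0.39 at ulk1. Counted from the highest, untreated WT means ranked 9734 at insr, 9656 at phlpp2, 9564 at foxo3 and 7896 at ulk1 of 9867 regions. These means rest on 23, 25, 28 and 55 reads over 3 libraries. For ulk1, which drew attention by its rise in TRβKO, the adjusted p in edgeR was 3.734e-06. Earlier results of these data were known when ulk1 was chosen, so this value too is a description. The pik3r1 difference of -1.39 ± 0.49 (-2.35 to -0.42) was not called, with an adjusted p in edgeR of 0.0732. It was called with TMM scaling at -1.61 and with DESeq2 at -1.59. Beside pik3r1 the difference had the opposite sign, 1.81 ± 0.85 (0.12 to 3.50), and was not called. The only peaks there were in TRαKO with T3, and foxo3 had peaks in WT and TRβKO with T3 but none in TRαKO. If the counted regions were taken from such peaks, differences between TRαKO and the other genotypes at both were in part set in advance. Over all tested regions the median difference was 0.36. Over the 956 regions called higher with T3 in WT, which share these libraries and were picked by the WT effect, the median was -1.80 with quartiles of -2.38 and -1.15. Among them, counted from the highest, pik3r1 ranked 325, ulk1 701, foxo3 864, phlpp2 910 and insr 929.

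Between the knockouts the T3 effect was larger in TRβKO at insr, pik3r1, phlpp2 and ulk1. These 4 of the 6 regions were called higher, and none lower, against 2.04% of tested regions higher and 1.45% lower. The log2 difference was 2.82 ± 0.48 at phlpp2, 2.68 ± 0.42 at ulk1, 2.05 ± 0.56 at pik3r1 and 1.94 ± 0.52 at insr, while the median of all regions was -0.55. The foxo3 value of 1.18 ± 0.56 (0.07 to 2.3) was not called, nor was -0.28 ± 0.71 beside pik3r1. Over the 956 regions called higher with T3 in WT the median was 1.13, with quartiles of 0.49 and 1.69. The foxo3 value lay between these quartiles and the 4 called values lay above them. At pik3r1 the difference was 3.73 without replicate 1 of untreated TRβKO and was not called without replicate 2 (1.64) or replicate 3 (1.60) of that group, or without replicate 2 of untreated TRαKO (1.61). At insr it was not called without replicate 2 of untreated TRαKO (1.81) or replicate 2 of TRαKO with T3 (1.88).

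Between TRβKO and WT none of the 6 regions was called for a different T3 effect, against 1.79% of tested regions called in either direction. DESeq2 also called none. At an unadjusted p below 0.05 the count was 2 of 6. The share of all tested regions at that cut-off was not computed, so 1.79% is no measure for this count. The differences were -1.54 ± 0.57 (-2.68 to -0.40) at insr and -1.74 ± 0.55 (-2.84 to -0.65) at foxo3. They were 0.66 ± 0.54 (-0.40 to 1.72) at pik3r1, -0.43 ± 0.52 (-1.45 to 0.60) at phlpp2 and 0.34 ± 0.44 (-0.53 to 1.21) at ulk1. Differences of over 1 log2 unit lie within each of these 5 intervals. At the region beside pik3r1 the difference was 1.53 ± 0.90 (-0.25 to 3.31).

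The genotypes were next compared within each treatment. With T3, all 5 genes had less signal in TRαKO than in WT. The 5 regions within or nearest the genes were called lower and none higher, against 7.3% of tested regions lower and 1.08% higher. The log2 difference was -1.88 ± 0.37 at foxo3, -1.49 ± 0.31 at insr, -1.39 ± 0.27 at pik3r1, -1.38 ± 0.24 at ulk1 and -1.02 ± 0.34 at phlpp2. The adjusted p in edgeR was 0.0001146 for pik3r1 and 1.101e-05 for ulk1. Earlier results of these data were known when both genes were chosen, so these values too are a description. Over the 956 regions called higher with T3 in WT the median was -1.25, with quartiles of -1.57 and -0.91, so that insr, pik3r1, phlpp2 and ulk1 lay between the quartiles and foxo3 below them. The phlpp2 call was near the threshold and was lost in 12 of 25 alternatives, among them TMM scaling (-0.91) and leaving out any of the 3 TRαKO or 3 WT libraries with T3. The region beside pik3r1 had 1.78 ± 0.70 and was not called. The limit set by where the peaks lay, given above for this region and foxo3, applies here too.

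With T3, TRβKO was called higher than WT at phlpp2 alone of the 6 regions, and lower at none, against 0.578% of tested regions higher and 3.65% lower. The log2 difference there was 1.36 ± 0.31, a 2.57-fold higher signal. Without replicate 3 of TRβKO with T3, the highest library, it was 1.16 and was not called. At ulk1 the value was 0.60 ± 0.23, not called, although the 3 TRβKO libraries lay above the 3 WT libraries, and it was called with TMM scaling (0.89), with DESeq2 (0.92), after thinning (0.65) and in a fit to those groups only (0.60). The values were -0.23 ± 0.31 (-0.83 to 0.38) at insr, 0.21 ± 0.27 (-0.33 to 0.74) at pik3r1 and 0.23 ± 0.34 (-0.45 to 0.91) at foxo3, and the insr value turned positive with TMM scaling (0.05) and DESeq2 (0.08). Beside pik3r1 the value was 1.82 ± 0.75 (0.33 to 3.31), larger than at phlpp2 but not called, with 5 reads in WT with T3. The median of all tested regions was -0.30.

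Against TRαKO with T3, TRβKO with T3 was higher at all 5 genes. The 5 regions were called higher and none lower, against 6.25% of tested regions higher and 4.13% lower. The log2 difference was 2.39 ± 0.30 at phlpp2, 2.11 ± 0.35 at foxo3, 1.98 ± 0.23 at ulk1, 1.60 ± 0.27 at pik3r1 and 1.26 ± 0.31 at insr. Beside pik3r1 it was 0.04 ± 0.52. Over the 956 regions called higher with T3 in WT the median was 1.14, with quartiles of 0.68 and 1.47. The insr value lay between these quartiles, and those of pik3r1, ulk1, foxo3 and phlpp2 lay above them.

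**Figure D3:**
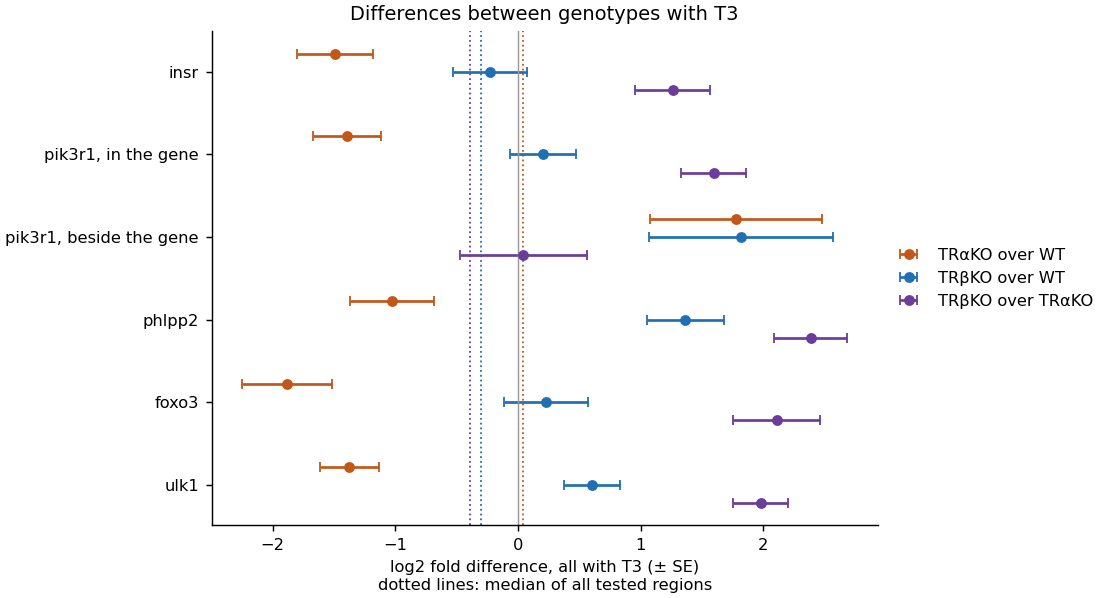
Log2 fold difference between genotypes (horizontal axis, point ± SE of the fit to 18 libraries), all with T3, at the 6 regions, with dotted lines at the median of all tested regions. TRαKO over WT lies between -1.88 and -1.02 at the 5 genes, TRβKO over TRαKO between 1.26 and 2.39, and TRβKO over WT between -0.23 and 1.36.

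Without hormone, knockout libraries held more signal than WT at some of the genes. TRαKO was called higher than WT at insr and phlpp2, 2 of the 6 regions, and lower at none, against 1.65% of tested regions higher and 1.1% lower. The log2 difference was 1.99 ± 0.41 at insr and 2.22 ± 0.39 at phlpp2, whereas the median of all tested regions was -0.28. At ulk1 it was 0.97 ± 0.30 with an adjusted p in edgeR of 0.0612, and it was called with TMM scaling (1.28) and DESeq2 (1.22). At pik3r1 it was 0.00 ± 0.41 (-0.81 to 0.81), with an adjusted p in edgeR of 0.998. The foxo3 value of 1.04 ± 0.45 was not called in edgeR and was called with DESeq2 (1.32). After thinning, insr at 1.24 was no longer called. Over the 956 regions called higher with T3 in WT, picked in part by the same untreated WT libraries, the median was 0.54. Its quartiles were 0.02 and 1.03. The insr, phlpp2 and foxo3 values lay above these quartiles, ulk1 between them and pik3r1 below them.

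TRβKO without hormone was called higher than WT at phlpp2 and foxo3, 2 of the 6 regions, and lower at none, against 2.07% of tested regions higher and 1.88% lower. The log2 difference was 1.79 ± 0.44 at phlpp2 and 1.97 ± 0.43 at foxo3. The phlpp2 call was lost without replicate 1 of untreated TRβKO (1.29) or replicate 1 of untreated WT (1.49). After thinning neither was called, at 1.90 and 1.53. At insr the value was 1.31 ± 0.49, not called, with all 3 TRβKO libraries above the 3 WT libraries. Across the alternatives the insr value ranged from 0 to 1.75 and was never called. The difference was 0.26 ± 0.37 at ulk1 and -0.46 ± 0.46 at pik3r1. Leaving out replicate 1 of untreated TRβKO gave -2.13 at pik3r1. Over the same 956 regions the median was 0.55, with quartiles of 0.07 and 1.04. The insr, phlpp2 and foxo3 values lay above these quartiles, ulk1 between them and pik3r1 below them. Between the untreated knockouts none of the 6 regions was called in edgeR or DESeq2, against 0.621% of tested regions in edgeR. The count at an unadjusted p below 0.05 was 1, a cut-off for which no share of all regions was computed.

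Peaks that the authors called in each library showed where these reads formed a local summit. No peak overlapped any of the 6 regions in untreated WT or untreated TRβKO, and 1 did in untreated TRαKO, at phlpp2 in replicate 2. With T3 there were peaks at 12 of 18 region and library pairs in WT, 11 of 18 in TRαKO and 14 of 18 in TRβKO. Over the counted regions on chromosomes, 29451 pairs a group, the share of such pairs with a peak was 46.1% in untreated WT and 6.49% in WT with T3. It was 6.66% and 25.9% in TRαKO, and 7.51% and 6.19% in TRβKO, without and with T3. Peak calling depends on depth, so the shares of groups of different depth are not compared.

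At pik3r1, within the gene, and at ulk1 a peak was present in all 9 T3 libraries. The ulk1 peaks had a fold enrichment over the local background, as the authors' caller gave it, of 10.5 to 12.4 in TRβKO, 8.25 to 8.43 in WT and 5.14 to 6.99 in TRαKO. The pik3r1 peaks had 8.07 to 9.33 in TRβKO, 8.85 to 9.29 in WT and 5.0 to 7.42 in TRαKO. At insr a peak was present in 8 of 9 T3 libraries, missing in replicate 2 of TRαKO. At phlpp2 all 3 TRβKO libraries with T3 had one, against 1 each of WT and TRαKO with T3. At foxo3 there were 2 in WT and 2 in TRβKO with T3 and none in TRαKO. The region beside pik3r1 had a peak in 2 libraries, both TRαKO with T3. Summits of different libraries lay within 12 bp at foxo3, 54 bp at phlpp2, 79 bp at ulk1 and 81 bp at pik3r1. At insr they spanned 257 bp, since the summit of replicate 3 of TRαKO with T3 was at -206 bp from the region's centre and the other 7 lay between -45 and 51 bp.

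**Figure D4:**
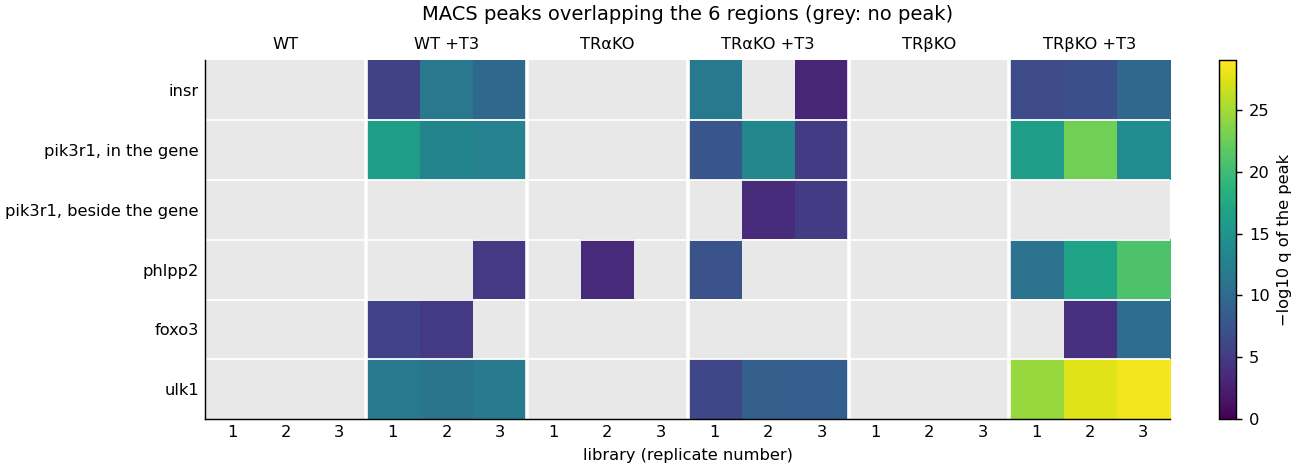
Peaks at the 6 regions (vertical axis) in the 18 libraries (horizontal axis, by group and replicate number), coloured by the −log10 q of the peak, with grey for no peak. The colours fill the 9 columns with T3 for pik3r1 and ulk1, and 1 cell, phlpp2 in TRαKO replicate 2, is coloured among the untreated libraries.

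The nearest counted regions beyond 10 kb lay 62.3 kb from pik3r1, 335.0 kb from insr, 425.0 kb from phlpp2, 450.3 kb from foxo3 and 1275.8 kb from ulk1. Each of them had a peak in 2 of the 18 libraries, none of which was a WT or TRβKO library with T3. They were left out by the distance rule.

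The other genes of the pathway were taken from a list of 150, of which 141 are in the gene table and 53 had a region within 10 kb. Those genes had 88 regions, 13 of which lay in or nearer to another gene, and 82 regions were tested. In WT, 20 rose with T3 and 1 fell, which is 24.4% and 1.22% of those tested, against 10.2% and 1.08% of all tested regions. In TRαKO 17 rose (20.7%) and none fell, and in TRβKO 17 rose (20.7%) and none fell, against 8.6% and 9.49% of all tested regions that rose. The median log2 change was 0.31, 0.82 and 0.15, against 0.02, 0.46 and -0.16 over all regions. This list was drawn up with earlier results of these data known, so its counts are a description. In TRαKO the count was 10 with TMM scaling.

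Among insulin and IGF receptors, adaptors and binding proteins, 3 of 11 regions rose in each genotype. One of them was at igfbp1, which encodes a secreted IGF-binding protein that insulin represses, with 3.08 ± 0.50 in WT, 1.93 ± 0.51 in TRαKO and 2.80 ± 0.50 in TRβKO. Among PI3-kinases and lipid phosphatases, 1 of 15 regions rose in WT and in TRαKO and none in TRβKO. It was at pik3c2g, which encodes a class II PI3-kinase, with 3.13 ± 0.44 in WT and 1.56 ± 0.43 in TRαKO, and with 1.12 ± 0.52 in TRβKO, not called. The difference of that effect between TRβKO and WT was not called.

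Of 14 regions at AKT and mTOR genes, 4 rose in WT, 5 in TRαKO and 4 in TRβKO. The gene sesn3 encodes a sestrin, a stress-induced inhibitor of mTOR complex signalling, and 2 of its regions rose in all 3 genotypes. At chr2:164604936-164605459 sesn3 went from 0.891 ± 0.132 to 16.7 ± 3.32 CPM in WT, from 2.08 ± 0.173 to 6.19 ± 0.363 CPM in TRαKO and from 1.58 ± 0.376 to 13.3 ± 3.69 CPM in TRβKO. The T3 effect there differed between TRαKO and WT by -2.65 ± 0.45, a description, since the WT effect is what named the region. Another sesn3 region, chr2:164577999-164578352, rose in TRαKO (1.77 ± 0.55) and had 0.02 ± 0.62 in WT and 0.62 ± 0.55 in TRβKO. At eif4ebp2, which encodes a translation repressor that mTOR phosphorylates, the change was 3.84 ± 0.41 in WT, 2.14 ± 0.43 in TRαKO and 3.26 ± 0.42 in TRβKO, all called.

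Of 15 regions at FOXO genes and metabolic targets, 6 rose and 1 fell in WT, 4 rose in TRαKO and 6 rose in TRβKO. The gene foxo6, which encodes another FOXO factor, had 3 of them, all called higher in every genotype. At chr2:78780393-78780892 foxo6 went from 2.01 ± 0.580 to 33.6 ± 3.46 CPM in WT, from 3.85 ± 1.18 to 14.4 ± 1.90 CPM in TRαKO and from 4.82 ± 0.882 to 35.2 ± 2.52 CPM in TRβKO. That foxo6 effect differed between TRαKO and WT by -2.17 ± 0.31, again a description, as its WT effect named it. At gys1, which encodes a glycogen synthase, the untreated libraries held only 19 reads in WT and 5 reads in TRβKO. The gys1 change was 3.27 ± 0.54 in WT and 4.61 ± 0.61 in TRβKO, and 1.36 ± 0.51 in TRαKO, not called. At tbc1d1, which encodes a Rab regulator that AKT phosphorylates in the control of glucose uptake, it was 3.70 ± 0.44 in WT, 2.45 ± 0.41 in TRβKO and 1.16 ± 0.41 in TRαKO, the last not called. The region that fell in WT was at crtc2, which encodes a CREB coactivator active in glucose production. The crtc2 region held 86 reads, 2.0 ± 0.219 CPM, in untreated WT and no read in the 3 WT libraries with T3. Against a floor of 3 reads over the group, 0.411 CPM, it was at least 4.86-fold lower, and the list median given above is the same with crtc2 at this bound.

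Of 27 regions at autophagy genes, 6 rose in WT, 4 in TRαKO and 4 in TRβKO. The gene ulk2, a paralogue of ulk1, rose by 3.33 ± 0.38 in WT, 1.78 ± 0.37 in TRαKO and 2.35 ± 0.37 in TRβKO. At bnip3, which encodes a receptor for the autophagy of mitochondria, the change was 3.66 ± 0.39, 2.01 ± 0.36 and 2.98 ± 0.36 in the same order, all called, at a region 3778 bp from the gene. At lamp1, which encodes a lysosomal membrane protein, it was 3.77 ± 0.44 in WT, 0.73 ± 0.39 in TRαKO, not called, and 2.87 ± 0.46 in TRβKO, at a region 8196 bp from the gene. The lamp1 effect, named for its WT value, differed between TRαKO and WT by -3.04 ± 0.59. At rubcn, which encodes an inhibitor of autophagy, TRαKO rose by 3.24 ± 0.95 from 4 reads to 36 reads, while the values of 1.42 ± 0.91 in WT and 2.14 ± 0.87 in TRβKO were not called. The difference of the rubcn effect between TRαKO and WT, 1.82 ± 1.31, was not called.

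**Figure D5:**
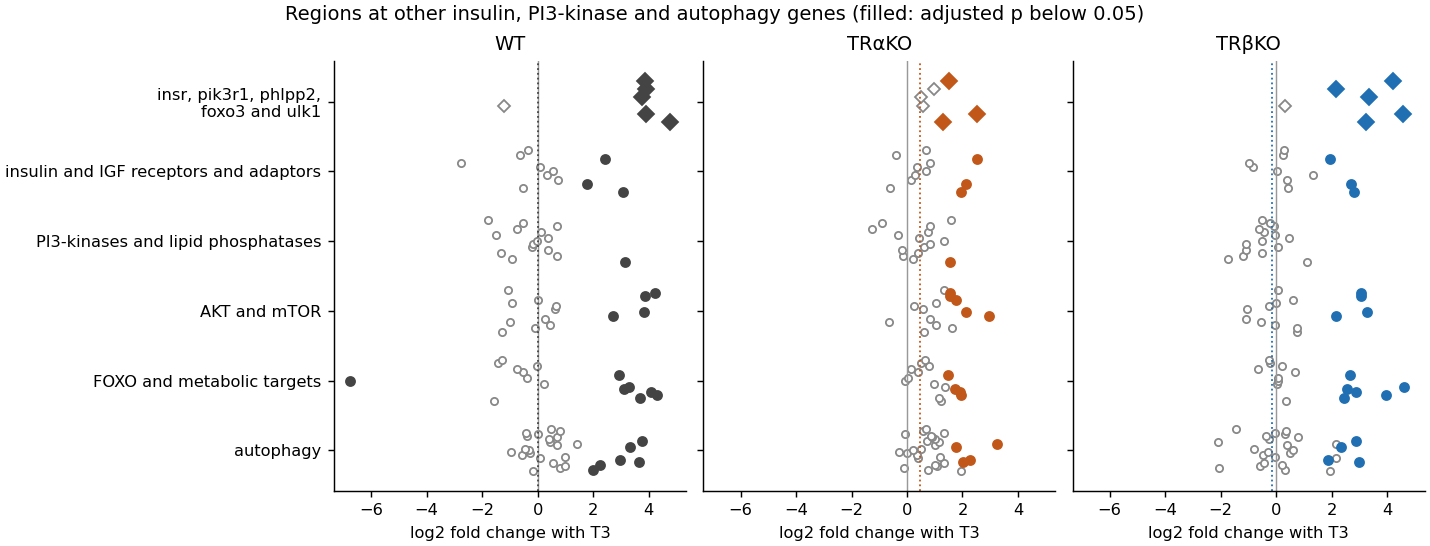
Log2 fold change with T3 (horizontal axis) at regions of the 5 genes (diamonds) and at 82 tested regions of other pathway genes (circles) grouped by role, in WT, TRαKO and TRβKO, filled where called, with dotted lines at the median of all tested regions. Filled circles number 21 in WT and 17 in each knockout, and the WT point near -7 is crtc2, with no read in WT with T3, so its position depends on the prior count of the fit and is no bound.

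Over the 18 libraries, the regions of the 5 genes followed each other, with a Pearson r of log2(CPM + 0.5) from 0.805 (pik3r1 and foxo3) to 0.952 (insr and ulk1). The region beside pik3r1 had r from -0.204 to 0.0771 with them. Regions elsewhere were ranked by r only if they had a gene symbol that does not begin with LOC. Among these, the most similar to insr were at selenoi (0.982), aqr (0.979) and MGC86483 (0.977). The most similar to pik3r1 were at tmcc1 (0.980), hmga2 (0.972) and fosl2 (0.972). For phlpp2 they were at cobl (0.955), jmjd1c (0.952) and aacs (0.945), and for foxo3 at nsmce2 (0.967), ezh2 (0.953) and fbxo11 (0.949). For ulk1 they were at tmem132b (0.982), thrb (0.980), the gene of TRβ, and another region of tmcc1 (0.980). These values describe points that share libraries, depth and the 6 groups.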

How the data were processed

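TR ChIP-seq was deposited for 18 libraries, 3 for each of 6 groups of genotype and treatment taken from the labels, each library being 1 replicate. Per the submitters' processing notes, reads were aligned with Bowtie2 2.3.4.1, peaks called with MACS2 2.1.1.20160309 and counts made with DiffBind, whose version is not given in the sources used here. The file headers, by contrast, record MACS 2.2.7.1, run library by library without a control, with 0.05 as the q-value limit, 2.7e+09 as genome size and at most 1 tag at a position. The deposited table holds the raw read counts of the authors for 9867 regions. The deposited peak lists give the pileup signal at the summit, the q-value as −log10 and, as a ratio, the fold enrichment over background near the peak in that library, per the file headers.

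The genome build is not given in the sources used here. Genes were taken by name and neighbourhood from the RefSeq gene table of UCB_Xtro_10.0, for whose gene ends 11.4% of regions lay within 1000 bp, against 7.33% and 7.92% after shifts of 50 kb. Coordinates are those of the count table. Whether a region is exonic or intronic, and its sequence, were not used here.

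A robust quasi-likelihood model of 6 group means was fitted to the counts with edgeR 4.0.16 and limma 3.58.1 in R 4.3.3. Library size was the number of tags after the duplicate filter. Of the regions, 9342 passed filterByExpr, and Benjamini-Hochberg adjustment ran over all of them for each of 12 contrasts, two-sided, at 0.05. Intervals are 95% intervals from that standard error and the t distribution with the degrees of freedom of the fit. A peak was counted at a region when they shared at least 1 bp. The script was tested on simulated data. The alternatives were TMM scaling, total tags before the duplicate filter, DESeq2 1.42.0, no filter, only the groups compared, counts thinned to the shallowest library, a replicate block, a narrower window, stricter peaks and each library left out. The variance between replicate libraries of a group was 1.85 to 2.16 times that of counting alone, so none repeated the counts of another. Whether libraries shared starting material cannot be told from this ratio. The p-values reflect the spread among these libraries, which may be partly technical. Python 3.11.15, pandas 2.3.3, numpy 2.4.6, scipy 1.17.1 and matplotlib 3.10.9 were used.

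The genes and the pathway list were chosen with earlier results of these data known. Named were all regions within 10 kb of the 5 genes. Up to 12 listed genes with a call in any T3 contrast were named, by the largest change. For the strongest region of each of the 5 genes, the 3 regions with the highest r were named. These were taken only among regions with a gene symbol, outside the 5 genes and leaving out symbols that begin with LOC. A few other listed genes in the closing section were chosen after their values were seen. Reads were not independent molecules, so floors cover counting error only.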

Additional observations from a re-analysis of the deposited data

Results flagged for a closer look

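The interaction term of the edgeR fit was past its threshold at 8 combinations of gene and contrast. Between TRαKO and WT the log2 difference of T3 effects was -3.48 at insr, -3.24 at phlpp2, -2.92 at foxo3 and -2.34 at ulk1. Between TRβKO and TRαKO it was 1.94 at insr, 2.05 at pik3r1, 2.82 at phlpp2 and 2.68 at ulk1. The rise in TRβKO is what drew attention to pik3r1 and ulk1, so their values in this contrast are a description, and what drew attention to the other genes is not known here. At insr and phlpp2 the untreated TRαKO level was also above that of WT, and the TRαKO level with T3 below it. Depth, the duplicate rate and, for untreated WT, the fragment length differed between these groups as well. Their part in the differences was not tested beyond the thinned counts. After thinning, insr, phlpp2 and ulk1 were called between TRαKO and WT, and foxo3 at -2.53 was not. Between TRβKO and TRαKO, insr, phlpp2 and ulk1 were called after thinning and pik3r1 at 2.35 was not.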

How the results depend on the processing

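Of 1569 values of single regions under the alternatives, 1517 kept their direction and their side of the threshold, 28 were no longer called, 13 were newly called and 11 changed sign. The signs that changed were of uncalled values: phlpp2 with T3 in TRαKO (-0.0352 in DESeq2), pik3r1 in TRαKO against WT untreated (0.31 with TMM, 0.25 in DESeq2, 0.64 after thinning, and -0.45 to 0.32 when a library was left out), insr in TRβKO against WT with T3 (0.0544 with TMM, 0.0842 in DESeq2), and, with a library left out, ulk1 in TRβKO against WT untreated (-0.13 to 0.56) and phlpp2 in the difference of T3 effects between TRβKO and WT (-0.88 to 0.0757). These totals count the region beside pik3r1 only for the T3 effect within each genotype. Its uncalled value also changed sign in TRαKO against WT untreated (-0.22 to 0.29) and TRβKO against TRαKO with T3 (-0.08 to 0.31). The same held for its difference of T3 effects between TRβKO and TRαKO (-0.43 to 0.13). An insr and a pik3r1 value of 0 in TRβKO against WT untreated were counted as unchanged in direction. Counts of the 6 regions moved as follows. T3 in TRαKO had 3, but 2 with TMM, DESeq2 or thinning. TRαKO against WT untreated had 2, but 4 in DESeq2, 3 with TMM, 1 after thinning and 1 with only regions overlapping the gene. TRβKO against WT untreated had 2, but 0 after thinning, 1 with only overlapping regions and 1 to 2 with a library left out. TRβKO against WT with T3 had 1, but 2 with TMM, DESeq2, thinning or only the groups compared, 0 with only overlapping regions and 0 to 1 with a library left out. TRαKO against WT with T3 had 5, but 4 with TMM, total tags, thinning or only overlapping regions. The difference of T3 effects between TRαKO and WT had 4, but 5 with TMM, DESeq2 or only the groups compared and 3 with thinning or only overlapping regions. That between TRβKO and TRαKO had 4, but 5 in DESeq2, 3 with thinning (pik3r1 lost at 2.35) or only overlapping regions and 2 to 4 with a library left out. The 17 pathway regions that rose in TRαKO were 10 with TMM and 11 after thinning, when 1948 regions in all were tested. The 1 peak in untreated TRαKO was 0 at a −log10 q of at least 5. The cause of these moves was not tested, apart from the fewer regions and reads that the narrower window and thinning leave.

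Libraries of the same replicate number were weakly linked across groups, as 18 of 18 libraries correlated best with their own number. The correlations of deviations were low: of 45 pairs of the same number none was over 0.1 (-0.00591 to 0.0479). What links them was not tested. With the replicate block the counts of called regions of the 6 were 5, 3 and 5 for T3 in WT, TRαKO and TRβKO, and TRαKO against WT with T3 had 4 in place of 5, phlpp2 (-1.02) being lost.

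Counts over all regions moved with scaling too. For T3 in TRαKO, 803 rose and 7 fell, but 398 and 49 with TMM and 410 and 154 in DESeq2. For T3 in WT it was 956 and 101, but 904 and 240 in DESeq2. For TRαKO against WT untreated it was 154 and 103, but 336 and 43 with TMM and 385 and 54 in DESeq2. For TRβKO against WT with T3 it was 54 and 341, but 74 and 137 with TMM and 110 and 132 in DESeq2. Low read numbers, such as 1 to 13 per untreated WT library at insr, limit the precision of the largest folds.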

Other observations

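Outside the T3 contrasts, regions at other genes of the pathway were compared between genotypes within each treatment. Of the genes named here and in the next paragraph, slc2a4, wipi2, atg13 and atg9b were chosen after their values were seen. Untreated TRαKO was higher than untreated WT at 3 of 82 regions, at foxo6 (0.94 ± 0.25), sesn3 (1.22 ± 0.36) and lamp1 (1.81 ± 0.44), and lower at none, against 1.65% and 1.1% of all tested regions. Untreated TRβKO was higher than WT at 2, foxo6 (1.29 ± 0.25) and tbc1d1 (1.60 ± 0.49). It was lower at 1 region of slc2a4, which encodes the insulin-regulated glucose transporter. That slc2a4 region held 7.83 ± 1.03 CPM in WT and 3.32 ± 1.46 CPM in TRβKO. TRβKO was also lower at 1 region of wipi2, which encodes an autophagosome protein. That wipi2 region held 7.5 ± 0.637 CPM in WT and 3.31 ± 1.03 CPM in TRβKO. Both genes had further counted regions, none of which was called in this contrast. These counts of 2 higher and 2 lower, 2.44% of the 82 each, are near the 2.07% and 1.88% of all tested regions. The called regions of this paragraph all had an adjusted p below 0.05 in edgeR.

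With T3, TRαKO was lower than WT at 9 of 82 regions, against 7.3% of all tested regions, and higher at none. TRβKO was lower than WT at 2, which is 2.44%, against 3.65% of all tested regions, and higher at none, against 0.578%. Compared with TRαKO, TRβKO with T3 was higher at 13 of the 82 regions (15.85%) and lower at 3 (3.66%). Over all tested regions these shares were 6.25% and 4.13%. At atg13, which encodes a subunit of the ULK1 complex, the level with T3 was 9.36 ± 2.94 CPM in WT, 3.22 ± 1.24 CPM in TRαKO and 1.92 ± 1.33 CPM in TRβKO. At atg9b, which encodes a membrane protein of early autophagosomes, the levels with T3 were 3.67 ± 0.930 CPM in WT, 2.18 ± 1.03 CPM in TRαKO and 0.344 ± 0.364 CPM in TRβKO, the last from 3 reads.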
